A study of Mus musculus with 3 samples.

Results

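The Hippo pathway and Yap target genes are 10 genes picked by name: the co-activator genes Yap1 and Wwtr1, the DNA-binding partner genes Tead1 and Tead2, the kinase gene Lats2, and the target genes Amotl2, Ccn1, Ccn2, Thbs1 and Ankrd1. Their rows were found in the gene tables by Entrez number, and all 10 were listed in every library, of 17997 genes listed in any. Ccn1 and Ccn2 are also known as Cyr61 and Ctgf. RNA sequencing was done on 46C mouse embryonic stem cells of strain 129, a line known to carry a reporter at the Sox1 locus, grown in serum and LIF on gelatin. The 3 groups were cells given an empty vector (labelled PB) and collected at passage 2 (empty vector P2), cells given lef1 and collected at passage 2 (Lef1 P2), and cells given lef1 and collected at passage 5 (Lef1 P5). Each group has 1 library, so there is no replicate and no test between conditions, and intervals in parentheses are 95% intervals for counting error only. No source used here says whether the transfected cells were a clone or a pool. Lef1 P5 differs from empty vector P2 by passage as well as by the vector, and these cannot be told apart. Values given as a run of 3 are in library order: empty vector first, then Lef1 at passage 2, then Lef1 at passage 5.

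In the Hippo pathway the Mst kinases, encoded by Stk4 and Stk3, act with the scaffold Sav1 to switch on the Lats kinases, which phosphorylate Yap and Taz (the Wwtr1 product) and keep them out of the nucleus. Unphosphorylated Yap and Taz enter the nucleus, bind Tead proteins and switch on genes such as Ccn1, Ccn2 and Ankrd1. Amotl2 and Lats2 are both targets and inhibitors of Yap, and so close a feedback loop. In the early mouse embryo the pathway is known for its part in separating trophectoderm from inner cell mass. Transcript levels do not report how much Yap is in the nucleus.

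The promoter sequences of Ccn1 and Amotl2 are shown because these were the members called higher in both Lef1 libraries, with Ankrd1 beside them as a textbook target that was barely detected. Each line is the 250 bases before the start in RefSeq's GRCm38.p6 table, read 5′ to 3′ on the gene's strand. Capitals mark the Tead motif, GGAATG or its reverse complement CATTCC.
Ccn1: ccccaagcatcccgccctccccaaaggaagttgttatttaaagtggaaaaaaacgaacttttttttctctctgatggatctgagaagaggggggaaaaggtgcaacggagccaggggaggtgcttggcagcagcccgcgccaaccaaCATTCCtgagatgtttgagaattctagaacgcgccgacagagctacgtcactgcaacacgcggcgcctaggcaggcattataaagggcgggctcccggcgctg
Amotl2: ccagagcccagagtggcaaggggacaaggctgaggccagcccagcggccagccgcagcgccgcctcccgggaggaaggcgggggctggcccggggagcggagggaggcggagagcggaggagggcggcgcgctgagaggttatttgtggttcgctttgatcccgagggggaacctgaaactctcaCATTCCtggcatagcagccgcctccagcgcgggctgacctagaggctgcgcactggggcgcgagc
Ankrd1: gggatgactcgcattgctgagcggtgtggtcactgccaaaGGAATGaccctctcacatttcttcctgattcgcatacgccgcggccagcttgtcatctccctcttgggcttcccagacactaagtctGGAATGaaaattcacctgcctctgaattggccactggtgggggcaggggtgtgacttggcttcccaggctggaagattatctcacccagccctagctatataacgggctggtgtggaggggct
The windows lie at chr3:145649986-145650235 (minus strand), chr9:102717554-102717803 (plus strand) and chr19:36119845-36120094 (minus strand). The match in Ccn1 lay 103 to 98 bases before the start and that in Amotl2 65 to 60 bases before it. Ankrd1 had 2 matches, at 210 to 205 and 123 to 118 bases.

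Of the 10 genes, 7 had a promoter in the table, and Ccn2, Thbs1 and Tead1 had no entry. The Tead motif was present on either strand in 5 of the 7 (Ccn1, Ankrd1, Amotl2, Yap1 and Wwtr1), where 14.4% of the 27025 genes with a window of that length had a match in at least 1 of their windows. The TCF/LEF motif CTTTGA, the kind of site that Lef1 binds, was found in Amotl2, at 97 to 92 bases, and in Wwtr1, 2 of the 7 members where 15.8% of all genes had a match. In Wwtr1 one of these matches shared 1 base with the Tead match, and no other matches overlapped. The AP-1 motif TGANTCA and the CArG box of serum response factor were each in 0 of the 7 members and in 7.82% and 1.62% of all genes with a window. A match is a stretch of letters and not evidence of binding.

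The libraries held 9225401, 9170554 and 9380813 expected counts. Levels are FPKM, read fragments corrected for transcript length and library total. A call of higher or lower required that log2((x + 1)/(y + 1)) of a gene's FPKM be at least 1 in size, with at least 3 FPKM and 20 expected counts in the higher library. Lef1 itself was at 1.49, 135 and 214 FPKM. All 8 pluripotent stem cell markers were at 48.2 FPKM or more in every library. The median log2 ratio of all tested genes was 0.09 for Lef1 P2 against empty vector P2, -0.02 for Lef1 P5 against empty vector P2 and -0.14 for Lef1 P5 against Lef1 P2. Rescaling by median-of-ratios factors, by TMM (a trimmed mean of log ratios) or by quantiles moved the first by -0.15, -0.15 and -0.12 and the last by 0.19, 0.17 and 0.16. The share of calls that were higher went with it, from 78.1% to 62.6%, 62.5% and 59.5% in the first and from 21.5% to 44.8%, 43.4% and 40.8% in the last. For the called members the difference is therefore also given relative to the median of all tested genes.

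Amotl2, Ccn1 and Thbs1 were called higher in Lef1 P2 than in empty vector P2, which makes 3 of the 10 genes where 6.49% of 10651 tested genes were called. In Lef1 P5 against empty vector P2, Amotl2 and Ccn1 were called higher, 2 of 10 where 1.40% of 10121 tested genes were. No member was called lower in these comparisons, where 1.82% and 1.28% of tested genes were. In Lef1 P5 against Lef1 P2, 0 of 10 were called higher and 0 lower, where 1.88% and 6.86% of 10593 tested genes were. The first and second comparisons use the same empty-vector library, so they are not independent. Yap1, Tead1 and Tead2 differed by at most 1.41-fold, and the target Ccn2 by at most 1.36-fold, in the 3 comparisons. Without a minimum level the median log2 ratio of the 10 genes was 0.47, 0.08 and -0.51 in the 3 comparisons, beside 0.08, 0 and -0.11 for all listed genes.

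The 10 primitive endoderm markers summed to 54.4, 809 and 222 FPKM, highest in Lef1 P2 and lowest in empty vector P2. Amotl2 and Ccn1 had this order of libraries, as did Amot, F3 and Nt5e described further on, and also Thbs1, Lats2, Tead1 and Yap1. In Thbs1, Lats2 and Yap1 the intervals of empty vector P2 and Lef1 P5 overlap. The marker Cubn, at 2.68, 33.0 and 2.53 FPKM, did not have this order. The share of all genes with this order was not computed. Of these markers 10 of 10 were called higher in Lef1 P2 and 7 of 10 in Lef1 P5, where 8 were tested, against empty vector P2. Among all tested genes, 6.49% and 1.40% were called higher in these comparisons. Of the 10 markers, only Col4a1 and Lama1 were at 3 FPKM or more in empty vector P2. The others could pass the minimum level only through a Lef1 library, and so could not be called lower against empty vector P2. None of the 10 markers was at 0, and their part in the levels of the Hippo and Yap genes was not tested. In bulk RNA, more cells of a type and more RNA per cell cannot be told apart. The 8 trophectoderm markers summed to 35.8, 119 and 44.5 FPKM, with Krt8 at 8.55, 61.3 and 19.2 FPKM, while the defining factor gene Cdx2 was at 0.16, 1.05 and 0.20 FPKM and Elf5 was not listed in any library. The keratin genes Krt8, Krt18 and Krt7 were called higher in Lef1 P2 than in empty vector P2, 3 of the 4 tested. These 3 were called lower in Lef1 P5 than in Lef1 P2. In Lef1 P5 against empty vector P2, Krt8 was called higher, 1 of 3 tested. Krt7 passed the minimum level only through Lef1 P2. The 12 fibroblast and feeder markers summed to 20.3, 16.8 and 9.65 FPKM, of which Thy1 made up 15.65, 9.54 and 7.21 FPKM. Without Thy1 the rest summed to 4.69, 7.30 and 2.44 FPKM, highest in Lef1 P2. Twist1 was at 1.35, 4.01 and 1.45 FPKM and passed the minimum level only through Lef1 P2. It was called higher in Lef1 P2 than in empty vector P2, and lower in Lef1 P5 than in Lef1 P2. Thy1 was called lower in Lef1 P5 than in empty vector P2, as the 1 gene of this list tested there. Calls of the fibroblast and feeder markers were not recomputed with other scalings. The part of these markers in the levels of the Hippo and Yap genes was not tested. Of the 12 genes, 5, 7 and 6 were not listed in the respective library, and Lum, Postn, Fap and Prrx1 were in none. The 8 pluripotent stem cell markers summed to 6285, 5563 and 6136 FPKM, and without Dppa5a, the most abundant, to 2514, 1745 and 2320 FPKM. None was called as deposited, and calls of these markers were not recomputed with the other scalings. Utf1 in Lef1 P2 was at 0.514 (0.487 to 0.542) and Pou5f1 at 0.620 (0.604 to 0.638) of empty vector P2, both named after their values were seen. The log2 ratio of Utf1 was -0.96, near the threshold. A shift of -0.15, as TMM scaling gave for the median of all tested genes, would take Utf1 past it. Sox2 was at 0.757, Zfp42 at 0.773, Esrrb at 0.933, Klf4 at 0.992, Dppa5a at 1.01 and Nanog at 1.05 in that comparison.

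**Figure D1:**
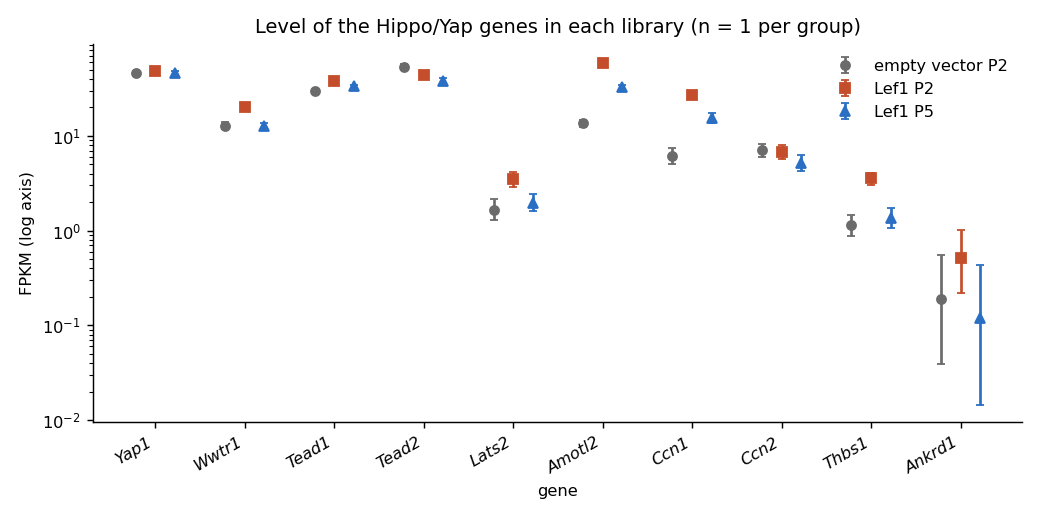
FPKM (log axis) of each of the 10 genes in the 3 libraries (grey circles, empty vector P2; red squares, Lef1 P2; blue triangles, Lef1 P5), with 95% counting intervals as bars and 1 library per group. Amotl2 runs from 13.6 to 58.8 and 32.5 FPKM, whereas Yap1 stays between 45.7 and 48.0 FPKM.

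Yap1 (Entrez gene 22601) encodes the main co-activator of the pathway. Its levels were 45.7 (43.5 to 47.9), 48.0 (45.8 to 50.2) and 46.0 (43.9 to 48.2) FPKM. The 3 intervals overlap, and the folds against empty vector P2 were 1.05 (0.983 to 1.12) and 1.01 (0.942 to 1.08). Its log2 ratio for Lef1 P2 was 0.07 as deposited and -0.09 with median-of-ratios or TMM scaling.

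Wwtr1 (Entrez gene 97064), which encodes the co-activator Taz, was lower in level than Yap1 throughout. It was at 12.8 (11.8 to 13.9), 20.1 (18.8 to 21.5) and 12.6 (11.5 to 13.6) FPKM. Lef1 P2 stood above the other two, by 1.56-fold (1.40 to 1.74) over empty vector P2, which is under the threshold. Lef1 P5 was 0.978 times the empty-vector level (0.868 to 1.10), with an interval that includes 1. The ratio of Yap1 to Wwtr1 was 3.56 (3.23 to 3.92) in empty vector P2, 2.39 (2.20 to 2.59) in Lef1 P2 and 3.66 (3.33 to 4.03) in Lef1 P5.

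The Tead genes encode the factors that carry Yap and Taz to DNA. Tead2 (Entrez gene 21677) had levels of 53.6 (50.3 to 57.0), 44.0 (41.1 to 47.1) and 38.0 (35.3 to 40.8) FPKM. Its level was lowest in Lef1 P5, at 0.709 of that in empty vector P2 (0.644 to 0.780), and 91.4% of all tested genes had a higher ratio in that comparison. Tead1 (Entrez gene 21676) had levels of 29.5 (28.4 to 30.6), 37.7 (36.4 to 39.0) and 33.4 (32.3 to 34.7) FPKM, and was lowest in empty vector P2. Neither was called in any comparison. Tead1 relative to Tead2 was 0.551 (0.512 to 0.593) in empty vector P2, 0.856 (0.793 to 0.925) in Lef1 P2 and 0.881 (0.812 to 0.956) in Lef1 P5, so the balance of the pair differed beyond counting error between the empty-vector library and both Lef1 libraries. A ratio within a library does not change when each library is scaled by 1 factor, as with median-of-ratios or TMM, but quantile scaling can change it.

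Of the other family members, Tead4, known for its role in trophectoderm, was at 11.6, 18.4 and 11.8 FPKM, and Tead3 at 3.21, 4.97 and 2.58 FPKM. Both were highest in Lef1 P2, and neither was called. The 4 Tead genes summed to 97.9, 105 and 85.8 FPKM, of which Tead2 made up 54.7%, 41.9% and 44.3%. Vgll4, which encodes a competitor of Yap for Tead, was at 3.42, 4.14 and 5.11 FPKM with overlapping intervals. Of the 6 partner genes considered (Tead3, Tead4 and the Vgll genes), 3 passed the minimum level and 0 were called in each comparison, and Vgll1 was not listed in any library.

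Lats2 (Entrez gene 50523) encodes a Lats kinase and is itself a Yap target. It was at 1.67 (1.28 to 2.14), 3.48 (2.92 to 4.12) and 1.98 (1.60 to 2.42) FPKM. Lef1 P2 was 2.08-fold (1.53 to 2.86) above empty vector P2, but the log2 ratio of 0.75 with the pseudocount was under the threshold. Lats2 was called higher with a pseudocount of 0.1 and when counts scaled to the library total, with no length, were used. The length assigned to Lats2 was 4151, 4290 and 5213 bases, and 2 transcripts are listed for it. On the reads alone, 63, 135 and 96, Lef1 P5 was 1.5 times empty vector P2 after scaling to the library total, against 1.19 times (0.854 to 1.66) in FPKM.

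Lats1, its relative, was at 4.08 (3.61 to 4.60), 7.84 (7.18 to 8.55) and 4.23 (3.75 to 4.75) FPKM, also highest in Lef1 P2, and the ratio of Lats1 to Lats2 was 2.44, 2.25 and 2.14 with overlapping intervals. The genes of the Mst kinases upstream of them were not ordered alike. Stk4 was at 22.5, 18.3 and 25.9 FPKM, lowest in Lef1 P2, and Stk3 at 6.56, 8.63 and 6.15 FPKM, highest there. The ratio of Stk4 to Stk3 was 3.42 (2.91 to 4.04), 2.12 (1.83 to 2.47) and 4.20 (3.57 to 4.97). The scaffold gene Sav1 was at 13.9, 18.4 and 12.7 FPKM. Nf2, which encodes the upstream activator Merlin, was at 47.1, 31.9 and 44.9 FPKM, and its fold of 0.678 (0.632 to 0.726) in Lef1 P2 did not reach the threshold.

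**Figure D2:**
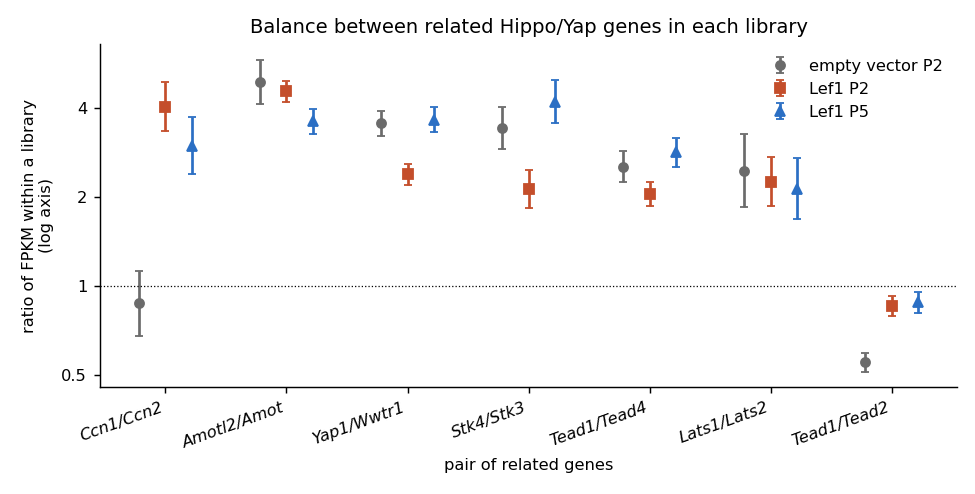
Ratio of FPKM (log axis) between pairs of related genes within each library (grey circles, empty vector P2; red squares, Lef1 P2; blue triangles, Lef1 P5), with 95% counting intervals as bars; the dotted line is a ratio of 1. Ccn1 to Ccn2 lies at 0.873 in empty vector P2 and at 4.04 and 2.98 in the Lef1 libraries, and Tead1 to Tead2 lies lowest in empty vector P2.

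Amotl2 (Entrez gene 56332) encodes an angiomotin, a junction-linked protein that binds Yap and holds it in the cytoplasm. Its levels were 13.6 (12.5 to 14.9), 58.8 (56.4 to 61.3) and 32.5 (30.7 to 34.3) FPKM, on 521, 2231 and 1262 reads. The 3 intervals do not overlap, with Lef1 P5 between the other libraries. The fold over empty vector P2 was 4.31 (3.92 to 4.75) in Lef1 P2, a log2 ratio of 2.03, or 1.94 above the median of all tested genes. In Lef1 P5 it was 2.38 (2.15 to 2.64), a log2 ratio of 1.19, or 1.21 above that median. Over the other pseudocounts, scalings and the unit without length, the log2 ratio lay between 1.78 and 2.10 in Lef1 P2 and between 1.01 and 1.24 in Lef1 P5. Only 0.929% and 0.909% of tested genes had a higher ratio in these comparisons. In Lef1 P2 Amotl2 had the highest level of the 10 genes, having been the fourth in empty vector P2. It was 1.81 times higher in Lef1 P2 than in Lef1 P5 (1.69 to 1.94), under the threshold.

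Amot, the founding member of that family, was also called higher in both Lef1 libraries, and Amotl1 in neither. Amot was at 2.78 (2.39 to 3.22), 12.9 (12.0 to 13.8) and 8.99 (8.28 to 9.75) FPKM, 4.64-fold (3.94 to 5.49) and 3.23-fold (2.73 to 3.85) over empty vector P2. Amotl1 was at 3.62, 4.02 and 3.90 FPKM, with folds of 1.11 (0.946 to 1.30) and 1.08 (0.918 to 1.26). Together the 3 angiomotin genes summed to 20.04, 75.8 and 45.3 FPKM, and Amotl2 made up 68.1%, 77.7% and 71.6%. The call of Amot in Lef1 P5 was lost with a pseudocount of 5 and with a minimum of 10 FPKM. Amot passed the minimum level only through the Lef1 libraries.

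Ccn1 and Ccn2 encode related secreted proteins of the extracellular matrix and are widely used readouts of Yap activity. Ccn1 (Entrez gene 16007) had levels of 6.16 (5.07 to 7.41), 27.3 (24.9 to 29.8) and 15.4 (13.7 to 17.3) FPKM. As for Amotl2, no intervals overlap and Lef1 P5 lies between. The folds over empty vector P2 were 4.43 (3.60 to 5.49) and 2.50 (2.01 to 3.15), with log2 ratios of 1.98 and 1.20, or 1.89 and 1.22 above the median of all tested genes. The call in Lef1 P5 was lost with a pseudocount of 5, where the log2 ratio was 0.87.

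Ccn2 (Entrez gene 14219) had levels of 7.06 (5.99 to 8.27), 6.75 (5.70 to 7.94) and 5.18 (4.28 to 6.22) FPKM. Its intervals overlap between all libraries, and the folds over empty vector P2 were 0.956 (0.757 to 1.21) and 0.734 (0.571 to 0.940), the second with an interval below 1. The ratio of Ccn1 to Ccn2 was 0.873 (0.678 to 1.12) in empty vector P2, 4.04 (3.35 to 4.89) in Lef1 P2 and 2.98 (2.39 to 3.73) in Lef1 P5. In empty vector P2 the levels of the pair did not differ beyond counting error, and in both Lef1 libraries Ccn1 was the higher.

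Thbs1 (Entrez gene 21825) encodes thrombospondin, a matrix glycoprotein. It was at 1.15 (0.880 to 1.48), 3.55 (3.06 to 4.10) and 1.37 (1.08 to 1.72) FPKM. Lef1 P2 stood apart from the other libraries, whose intervals overlap each other. The fold over empty vector P2 was 3.09 (2.30 to 4.19) and the log2 ratio 1.08, just past the threshold and 0.99 above the median of all tested genes. Its call was lost under each rescaling, at 0.97 by median-of-ratios, 0.97 by TMM and 0.78 by quantiles, with a pseudocount of 5 (0.48) and with a minimum of 10 FPKM. Thbs1 passed the minimum of 3 FPKM only through Lef1 P2, as did Lats2.

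Ankrd1 (Entrez gene 107765), which encodes an ankyrin-repeat protein abundant in heart muscle, was close to the limit of detection. It had 3, 8 and 2 reads, which amount to 0.19 (0.0392 to 0.555), 0.51 (0.220 to 1.00) and 0.12 (0.0145 to 0.433) FPKM. The intervals overlap, and the ratio of Lef1 P2 to empty vector P2 was 2.68 with an interval from 0.644 to 15.7. A difference in this gene was not detectable at this depth.

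In empty vector P2 the order of levels ran Tead2, Yap1, Tead1, Amotl2, Wwtr1, Ccn2, Ccn1, Lats2, Thbs1 and Ankrd1, and the neighbours Amotl2 and Wwtr1, Ccn2 and Ccn1, and Lats2 and Thbs1 did not differ beyond counting error. In Lef1 P2 it ran Amotl2, Yap1, Tead2, Tead1, Ccn1, Wwtr1, Ccn2, Thbs1, Lats2 and Ankrd1, with overlap between Yap1 and Tead2 and between Thbs1 and Lats2. In Lef1 P5 it ran Yap1, Tead2, Tead1, Amotl2, Ccn1, Wwtr1, Ccn2, Lats2, Thbs1 and Ankrd1, with overlap between Tead1 and Amotl2 and between Lats2 and Thbs1. Ccn1 thus passed both Ccn2 and Wwtr1 in the Lef1 libraries. All 10 genes had whole-number expected counts in each library.

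**Figure D3:**
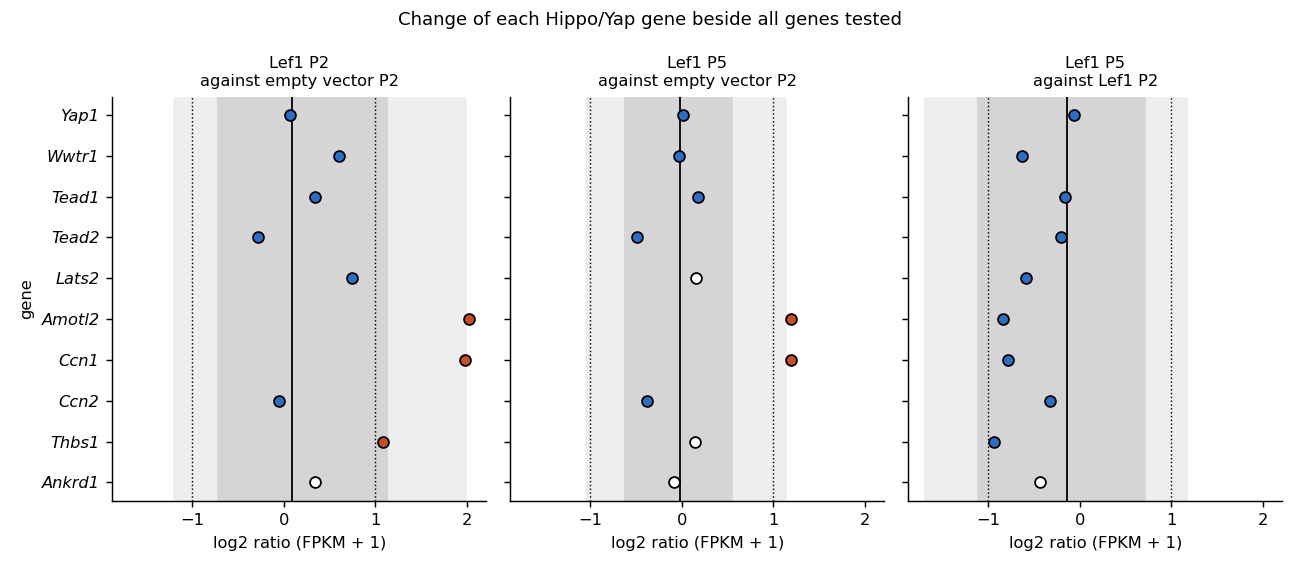
Log2 ratio of FPKM + 1 for each gene in the 3 comparisons (red, called; blue, tested and not called; white, under the minimum level), beside all tested genes (black line, median; dark band, 5th to 95th percentile; light band, 1st to 99th percentile); dotted lines are the threshold. Amotl2 and Ccn1 lie near 2 in Lef1 P2 and near 1.2 in Lef1 P5, and all 10 genes lie below 0 in Lef1 P5 against Lef1 P2.

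The minimum level was passed by 9 of the 10 genes in Lef1 P2 against empty vector P2, by 7 in Lef1 P5 against empty vector P2 and by 9 in Lef1 P5 against Lef1 P2. All 10 ratios were below 0 in the last comparison as deposited, but those of Yap1 and Tead1 were above 0 with median-of-ratios and TMM scaling (0.14 and 0.12 for Yap1, 0.03 and 0.01 for Tead1). The ratio of Wwtr1 between Lef1 P5 and empty vector P2 was -0.03 as deposited and 0.01 with median-of-ratios scaling. In Lef1 P5 against Lef1 P2 the members with the lowest ratios were Thbs1 at -0.94, Amotl2 at -0.84 and Ccn1 at -0.78, which are the 3 called higher in Lef1 P2, and that library enters both comparisons.

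Of 17 further genes known as targets of Yap or Taz, Nt5e and F3 were the ones called. In Lef1 P2 against empty vector P2, 2 were called higher and 0 lower, with 11 tested. Among all tested genes, 6.49% were called higher and 1.82% lower in that comparison. Nt5e, which encodes an enzyme that makes adenosine at the cell surface, had levels of 2.46 (1.95 to 3.06), 11.1 (9.96 to 12.3) and 8.18 (7.23 to 9.21) FPKM. F3, the gene of the clotting initiator tissue factor, had levels of 3.22 (2.42 to 4.20), 11.4 (9.85 to 13.2) and 7.19 (5.98 to 8.58) FPKM. In both genes Lef1 P2 was highest and empty vector P2 lowest, with Lef1 P5 between. Nt5e passed the minimum level only through the Lef1 libraries. Nt5e was called in Lef1 P5 as well, at 3.33-fold (2.58 to 4.32), and F3 was not, with a log2 ratio of 0.96. In that comparison 10 of the 17 genes were tested, and 1.40% of all tested genes were called higher. Foxf2, a forkhead factor gene named after its values were seen, had 5, 54 and 14 reads and lay at 0.23, 2.55 and 0.64 FPKM, under the minimum level in each library.

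The median log2 ratio of the tested genes among the 17 was 0.35 in Lef1 P2 and -0.15 in Lef1 P5 against empty vector P2, beside 0.09 and -0.02 for all tested genes. Without a minimum level the medians were 0.21 and 0.02, beside 0.08 and 0 for all listed genes, so the sign in Lef1 P5 turned with the minimum. With a pseudocount of 5 F3 lost its call in Lef1 P2 and Nt5e in Lef1 P5, and Nt5e also lost it in Lef1 P5 with a minimum of 10 FPKM. Igfbp3, chosen after its values were seen because it went the other way, was at 4.69, 2.28 and 3.55 FPKM. Its fold in Lef1 P2 was 0.486 (0.340 to 0.688), which was not called as reported but was called lower with a pseudocount of 0.1, with quantile scaling and with a fold threshold of 1.5.

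Of 25 genes for the kinase cassette and its regulators, 23 were tested. Amot was the 1 called higher in each Lef1 library against empty vector P2, and 0 were lower. Among all tested genes, 6.49% were called higher and 1.82% lower in Lef1 P2, and 1.40% and 1.28% in Lef1 P5. The median log2 ratio of the 23 genes was 0.40 in Lef1 P2 and -0.02 in Lef1 P5, beside 0.09 and -0.02 for all tested genes. Ptpn14 is in this list and among the 17 targets, and was not called. Taok3, which encodes a kinase of the family that acts on the Mst kinases, was at 3.62, 8.22 and 3.50 FPKM. It was called lower in Lef1 P5 than in Lef1 P2, a call lost with TMM scaling and with a pseudocount of 5. Its log2 ratio of 1.00 between Lef1 P2 and empty vector P2 fell just short of the threshold. Fat4 was not listed in any library.

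**Figure D4:**
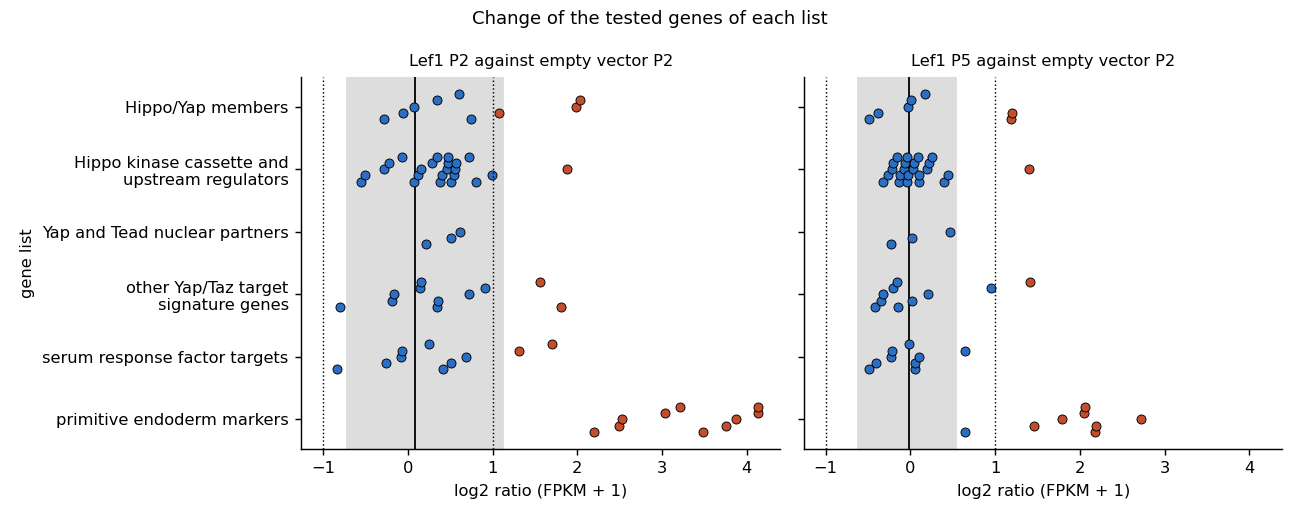
Log2 ratio of FPKM + 1 for the tested genes of each list (points; red, called; blue, not called; vertical offsets only separate points) in the Lef1 libraries against empty vector P2, with the median of all tested genes (black line), their 5th to 95th percentile (band) and the threshold (dotted). In Lef1 P2 all 10 primitive endoderm markers are called and lie to the right of every Hippo and Yap gene, and in Lef1 P5 7 of the 8 tested are called.

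Ccn1 is also known as a target of serum response factor. Of 16 other targets of that factor, 10 were tested in Lef1 P2 against empty vector P2. Egr1 and Fos, early-response transcription factor genes, were called higher, and 0 were called lower. Among all tested genes, 6.49% were called higher and 1.82% lower in that comparison. Egr1 was at 4.60, 17.2 and 3.84 FPKM and Fos at 1.59, 5.43 and 2.02 FPKM. Both were called lower in Lef1 P5 than in Lef1 P2, and neither was called in Lef1 P5 against empty vector P2. Both calls of Fos were lost with a pseudocount of 5, and its call of lower was also lost with TMM scaling. Fos passed the minimum level only through Lef1 P2. Flna and Tagln, named after their values were seen, were lower in Lef1 P2 than in empty vector P2. Flna was at 82.0, 45.4 and 85.1 FPKM, a fold of 0.554 (0.531 to 0.577) in Lef1 P2, and was not called. Tagln was at 2.55, 0.64 and 2.29 FPKM, under the minimum level in each library. Of the 10 tested genes, 6 had a log2 ratio above 0 in Lef1 P2. The median log2 ratio of the tested genes in Lef1 P2 was 0.34, beside 0.09 for all tested genes, but without a minimum level it was -0.07, so its sign turned. In Lef1 P5 the medians were -0.02 and -0.14.

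Of 10712 genes with at least 3 FPKM and 20 counts in their highest library, the gene nearest to Ccn1 in its pair of log2 ratios against empty vector P2 was Pdzd3, at a distance of 0.05, followed by Amotl2 at 0.05 and LOC547349 at 0.08. Pdzd3 was at 0.31, 4.32 and 2.05 FPKM. The distance rests on 3 libraries and a shared control. For Ankrd1 the nearest were Ell, Stx12 and Stk3, but 316 genes lay within 0.1 of it, and its ratios rest on too few reads to single any out.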

How the data were processed

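Total RNA of 3 libraries was sequenced, and 1 gene table per library was deposited. Per the submitters' processing notes, the aligner was Bowtie 0.12.2 and the genome build mm8. The counting program and its strand setting were details not given in the sources used here. The authors' tables hold, per the file headers, an Entrez number, a length, an expected count that need not be whole, and an FPKM value, used as deposited; log2 ratios were computed from the deposited FPKM. A gene missing from a table was taken as 0. Symbols came from RefSeq's GRCm38.p6 gene table (17951 of 17997 numbers matched), and promoters from its promoter table; no coordinates of mm8 were used.

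Calls used a pseudocount of 1 FPKM and the thresholds given above. Intervals are exact Poisson for levels and Clopper-Pearson on the reads for ratios. They cover counting error only, since amplified reads are not independent molecules. Calls were tested on simulated data. The 12 alternatives are listed in the closing section; expected counts were rounded for TMM factors (edgeR 4.0.16). Python 3.11.15 with scipy 1.17.1 was used.

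Named genes were the 10 members, Lef1, and up to 2 highest and 2 lowest called genes of each other pathway list per comparison. To these were added 9 further pathway genes whatever their values, and the 3 genes nearest to Ccn1 and to Ankrd1. Other genes, such as Foxf2, Igfbp3, Flna and Tagln, fall outside this rule and were named after their values were seen. So do the cell type markers singled out, such as Utf1, Pou5f1, Cubn and Krt8, and not every called marker is named. The members and lists were chosen with earlier results of these data known, and the pairs of related genes after their values were seen.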

Additional observations from a re-analysis of the deposited data

How the results depend on the processing

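Settings tried were a pseudocount of 0.1 or 5, a minimum of 1 FPKM, 10 FPKM or none, median-of-ratios, TMM and quantile scaling, fold thresholds of 1.5 and 4, counts scaled to the library total with no length (CPM), and calls restricted to counting intervals that do not overlap. The 3 members called higher in Lef1 P2 against empty vector P2 became 5 with a fold threshold of 1.5 (Lats2 and Wwtr1 added) and 1 with a threshold of 4 (Amotl2). The 2 called higher in Lef1 P5 against empty vector P2 became 1 with a pseudocount of 5 (Amotl2) and 0 with a fold threshold of 4. The 0 called lower in Lef1 P5 against Lef1 P2 became 1 with a pseudocount of 0.1 and 1 with CPM (Thbs1 in both), and 5 with a fold threshold of 1.5 (Amotl2, Ccn1, Lats2, Thbs1 and Wwtr1). The cause of these changes, beyond the threshold itself, was not tested. All other counts of called members were within 1.5 times the reported count. Of 180 recomputed log2 ratios of members, 24 moved by more than their counting interval. No called ratio changed sign. That carries little weight, since called ratios are at least 1 in size and rescaling moved the all-gene medians by at most 0.19. Of 288 recomputed counts of the other pathway lists, 54 moved by more than 1.5 times. No paired analysis was possible because each group has 1 library and no test was made. Depth limits Ankrd1 in particular, since for a 1 kb transcript 3 reads equal 0.325, 0.327 and 0.320 FPKM in library order.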
